A study of Mus musculus with 188 samples.

Results

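Brain slice cultures (BSCs) of C57BL/6J mice were exposed to 400 μM heme-albumin for 24 h, the highest of the heme-albumin doses sequenced, and their mRNA was compared with that of control BSCs of the same sequencing batch. Members were chosen by the treatment tags and the batch tag alone. These gave 10 libraries of heme-albumin 400 μM and 10 control libraries, 20 of the 188 libraries of the series. The series as a whole profiled BSCs given free heme, free hemoglobin or their complexes with the scavenger proteins hemopexin and haptoglobin. Slices were cut coronally at 150 μm from perfused mice of 6 to 8 weeks, both sexes, without any transgene, and 2 slices shared 1 culture insert. The complex was added on day 7 of culture, after the medium had been made serum-free. Heme was carried by human serum albumin, and the study calls its controls vehicle or medium-only. No library of batch 1 is labelled as albumin alone, so heme and its carrier cannot be told apart here. The titles and treatment tags give 400 μM, whereas the general treatment text of the labels speaks only of 200 μM. Nothing in the labels says which libraries come from the same animal or insert, so p-values measure the spread between these libraries.

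Heme is an iron-containing ring that catalyzes oxidant reactions when it is not held by a protein. Cells break it down with heme oxygenase, which frees iron, carbon monoxide and biliverdin, and they store the iron in ferritin or export it through ferroportin. Electrophiles and oxidants stabilize the transcription factor NRF2, which turns on genes of glutathione and thioredoxin chemistry, while shortage of amino acids, ER stress or heme deficiency can raise the translation of ATF4, which turns on amino acid transport, amino acid synthesis and tRNA charging. In the hemorrhagic brain, astrocytes and microglia are the cells mainly known to take up and degrade heme and Hb.

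The stretches before the start sites of 4 genes are shown because they belong to groups of genes that moved largely together at 400 μM, the NRF2 targets Prdx1 and Gclm and the ATF4 targets Chac1 and Slc7a11. Each is 250 bases long, ends at the base before the RefSeq start site and is printed 5′ to 3′ on the strand of the gene (RefSeq, GRCm38.p6). Prdx1 encodes a peroxiredoxin (chr4:116685349-116685598, plus strand), Gclm the modifier subunit of the enzyme that starts glutathione synthesis (chr3:122245307-122245556, plus strand), Chac1 an enzyme that degrades glutathione (chr2:119350992-119351241, plus strand) and Slc7a11 the cystine importer xCT (chr3:50443614-50443863, minus strand). Capitals mark matches on either strand to the core of the antioxidant response element, TGACNNNGC, in the first pair, and to the core of the amino acid response element, TGATGNAA, in the second pair.
Prdx1: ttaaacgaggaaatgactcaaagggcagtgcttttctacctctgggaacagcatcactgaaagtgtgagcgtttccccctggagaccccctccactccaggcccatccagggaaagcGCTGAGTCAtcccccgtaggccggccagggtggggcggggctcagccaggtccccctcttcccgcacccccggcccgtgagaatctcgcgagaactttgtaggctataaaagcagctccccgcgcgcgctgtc
Gclm: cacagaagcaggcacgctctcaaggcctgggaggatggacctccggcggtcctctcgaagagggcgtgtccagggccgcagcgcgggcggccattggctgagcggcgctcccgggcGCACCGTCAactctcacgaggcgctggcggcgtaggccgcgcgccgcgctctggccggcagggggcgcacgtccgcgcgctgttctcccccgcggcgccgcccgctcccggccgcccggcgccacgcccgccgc
Chac1: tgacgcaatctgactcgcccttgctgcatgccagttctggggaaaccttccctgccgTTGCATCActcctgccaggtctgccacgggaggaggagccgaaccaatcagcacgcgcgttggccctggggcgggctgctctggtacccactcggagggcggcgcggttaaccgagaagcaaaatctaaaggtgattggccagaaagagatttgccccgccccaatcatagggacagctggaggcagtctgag
Slc7a11: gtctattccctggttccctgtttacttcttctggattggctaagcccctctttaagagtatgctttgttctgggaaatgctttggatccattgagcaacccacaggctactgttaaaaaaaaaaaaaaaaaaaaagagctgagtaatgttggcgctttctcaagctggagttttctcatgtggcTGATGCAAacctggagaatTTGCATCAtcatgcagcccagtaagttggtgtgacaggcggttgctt

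The match of Prdx1 lies 133 to 125 bases before the start and also holds the AP-1 site TGAGTCA. That of Gclm lies 134 to 126 bases before the start, and that of Chac1 193 to 186 bases before it. Slc7a11 holds 2 matches, at 66 to 59 and at 47 to 40 bases. Of the 36 NRF2 targets listed here, 30 had a window in the RefSeq table and 9 of these (30%) held TGACNNNGC, beside 10.2% of all 32851 windows of this length. The same letters were found for 8 of the 19 early response factors with a window (42.1%) and for 5 of 27 ATF4 targets (18.5%). TGATGNAA was found for 8 of the 27 ATF4 targets with a window (29.6%), of 31 listed, beside 1 of 30 NRF2 targets (3.33%), 0 of 19 early response factors and 3.45% of all windows. A listed gene was counted if any of its windows held the letters, whereas the shares over all windows were taken per window. A gene with more than 1 window would thus have more chances of a match. A match is a description of these letters and no evidence of binding.

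The total count per library was 11038484 to 29576977 in the controls (median 16404294) and 14713479 to 29001202 at 400 μM (median 22215295), so the controls were the shallower group. Both groups held 5 libraries whose names begin with M and 5 that begin with W. Y-linked transcripts summed to at least 164 CPM in every M library and to at most 0.0837 CPM in every W library, where CPM are counts scaled to a common library size (TMM). No pair of libraries within a group agreed within sampling noise. On the first principal component, which held 42.1% of the variance, the groups overlapped (−30.6 to 42.5 in the controls and −28.2 to 36 at 400 μM). On the second, with 23.4%, they did not (−24.9 to −8.2 and 3.3 to 26.3). Tissue markers showed glia, and few neuronal transcripts: astrocyte markers summed to 9066 to 13612 CPM (median 12436) in the controls, oligodendrocyte markers to 17474 to 31371 CPM (median 21739) and neuronal markers to 785 to 1163 CPM (median 849.9). Erythroid markers summed to at most 0.36 CPM in any library of either group. Control replicate 2 stood apart by its choroid plexus and ependyma markers, with 3766 CPM where the next control had 593 CPM, and 400 μM replicate 6 by its meningeal fibroblast markers, with 3588 CPM where the next library had 1730.5 CPM. Counts over all genes, and list counts that moved by over 1.5 times, are given without both libraries as well, the latter with the cell types.

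Heme-albumin at 400 μM changed 4510 genes, in nearly equal numbers up and down. Of 15554 genes tested, 2284 were higher (14.7%) and 2226 lower (14.3%) than in the controls at an adjusted p under 0.05, together 29%. The counts of list members against control given below are to be read beside these shares. Adjusted p-values throughout are Benjamini-Hochberg values over all genes tested, from the quasi-likelihood test of edgeR, and log2 fold changes are given with their standard errors (SE). Most changes were small, and 137 of the higher and 132 of the lower genes changed by at least 2-fold. Without control replicate 2 and 400 μM replicate 6, 2202 genes were higher and 2062 lower. The 10 libraries of 1 group lay wholly above those of the other for 213 genes at 400 μM (1.37% of those tested) and wholly below for 114 genes (0.733%). The median log2 fold change over all genes tested was −0.01.

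**Figure D1:**
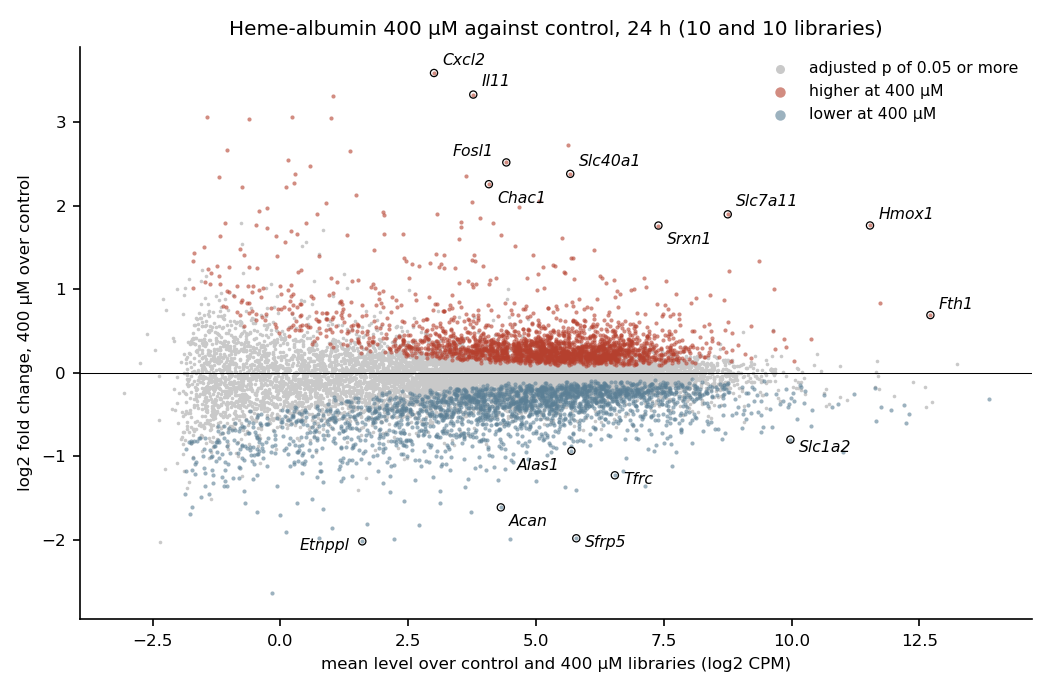
Log2 fold change at 400 μM heme-albumin against control (y axis) by mean level over the 20 libraries in log2 CPM (x axis), 1 point per gene tested (15554). Red points are the 2284 genes higher and blue points the 2226 genes lower at an adjusted p under 0.05; Cxcl2 and Il11 lie highest among the labelled genes, and Hmox1 and Fth1 are abundant genes that also rose.

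The 12 genes raised most included secreted signals, enzymes, a receptor and a transcription factor. Cxcl2, a chemokine for neutrophils, ran from 0.364 to 2.17 CPM (median 1.11) in the controls and from 1.94 to 42.3 CPM (median 11.4) at 400 μM. All but 1 of the 10 exposed libraries lay above the highest control. Its log2 fold change was 3.59 ± 0.48 (SE, adjusted p = 2.64e-08). Il11, a cytokine of the IL-6 family, ran from 1.66 to 3.62 CPM (median 2.30) in the controls and from 6.69 to 53.2 CPM (median 22.7) at 400 μM, a log2 fold change of 3.33 ± 0.26 (SE, adjusted p = 6.75e-16). The groups did not overlap. Il19, of the IL-10 family, changed by 3.05 ± 0.44 (SE, adjusted p = 2.11e-07) from at most 0.943 CPM. The AP-1 subunit Fosl1 ran from 4.87 to 9.36 CPM (median 6.18) in the controls and from 16.9 to 61.01 CPM (median 36.6) at 400 μM, without overlap, which was a log2 fold change of 2.52 ± 0.14 (SE, adjusted p = 5.97e-21). Other strongly raised genes were Adm2, a peptide hormone of the adrenomedullin family, at 3.06 ± 0.49 (SE, adjusted p = 1.99e-06), Areg, a ligand of the EGF receptor, at 2.66 ± 0.26 (SE, adjusted p = 4.28e-12), Serpinb2, an inhibitor of plasminogen activators, at 2.48 ± 0.49 (SE, adjusted p = 6.64e-05), and the alcohol and retinol dehydrogenase Adh7 at 2.38 ± 0.26 (SE, adjusted p = 2.04e-10). Acod1, which makes itaconate in activated macrophages, had a log2 fold change of 3.31 ± 1.01 (SE, adjusted p = 0.00962) that rested on 1 library: 400 μM replicate 2 had 27.3 CPM and the next 1.98 CPM, and without it the change was 1.56 with an adjusted p of 0.239.

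Among the genes that fell most were genes of phospholipid and matrix metabolism and of microglia. Etnppl, which breaks down phosphoethanolamine and is enriched in astrocytes, changed by −2.02 ± 0.36 (SE, adjusted p = 1.76e-05). Sfrp5, a secreted Wnt antagonist, ran from 39.1 to 179 CPM (median 64.9) in the controls and from 9.46 to 35.5 CPM (median 22.5) at 400 μM, which was −1.98 ± 0.29 (SE, adjusted p = 2.02e-07), and the groups did not overlap. Acan, the core protein of aggrecan in perineuronal nets, ran from 18.9 to 51.1 CPM (median 29.5) in the controls and from 8.41 to 14.1 CPM (median 9.53) at 400 μM, likewise without overlap, and fell by 1.61 on the log2 scale (SE 0.14, adjusted p = 2.36e-13). Hapln1, the link protein that ties aggrecan to hyaluronan, changed by −1.82 ± 0.21 (SE, adjusted p = 5.06e-10). Others of the 12 lowered most were the chemokine Ccl12 (−1.99), the microglial lysophospholipid receptor Gpr34 (−1.98), the matrix protein Ucma (−1.90), the steroid sulfate transporter Slc10a6 (−1.86), the inhibitory myeloid lectin Clec12a (−1.81), the lipid droplet protein Plin4 (−1.67) and the sulfotransferase Sult1a1 (−1.63). The summed astrocyte and microglial markers, given with the cell types, also had lower medians at 400 μM, and their part in these changes was not tested.

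The inducible heme oxygenase, ferroportin and both ferritin chains rose, the transferrin receptor fell, and the other genes of the group were mixed. Of 31 genes of heme breakdown and iron handling tested (32 listed), 9 were higher (29%) and 5 lower (16.1%), and their median log2 fold change was −0.04. Over all genes tested, 14.7% were higher and 14.3% lower. Hmox1, the inducible heme oxygenase, ran from 638 to 2186 CPM (median 1197) in the controls and from 3445 to 6596 CPM (median 4062) at 400 μM. The groups did not overlap, and the log2 fold change was 1.76 ± 0.19 (SE, adjusted p = 5.35e-11). Slc40a1, which encodes ferroportin, the iron exporter, ran from 8.64 to 27.8 CPM (median 14.9) in the controls and from 56.6 to 124 CPM (median 86.5) at 400 μM. This was the largest change of the list, at 2.38 ± 0.18 (SE, adjusted p = 2.06e-16), again without overlap. Blvrb, a biliverdin reductase, rose by 1.30 ± 0.12 (SE, adjusted p = 2.34e-12), and Slc48a1, the heme transporter of the phagolysosome, by 0.93 ± 0.081 (SE, adjusted p = 8.76e-14). Both were without overlap. The ferritin heavy chain Fth1 ran from 3606 to 6959 CPM (median 4856) in the controls and from 6658 to 11036 CPM (median 7749) at 400 μM, with 9 of 10 exposed libraries above every control, a log2 fold change of 0.69 ± 0.11 (SE, adjusted p = 3.15e-06). The light chain Ftl1 changed by 0.83 ± 0.18 (SE, adjusted p = 0.000348), and 5 exposed libraries lay above every control. Tfrc, the transferrin receptor through which cells import iron, ran from 105 to 158 CPM (median 131) in the controls and from 25.2 to 87.8 CPM (median 58.2) at 400 μM. It fell without overlap, by 1.22 on the log2 scale (SE 0.16, adjusted p = 1.97e-08).

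**Figure D2:**
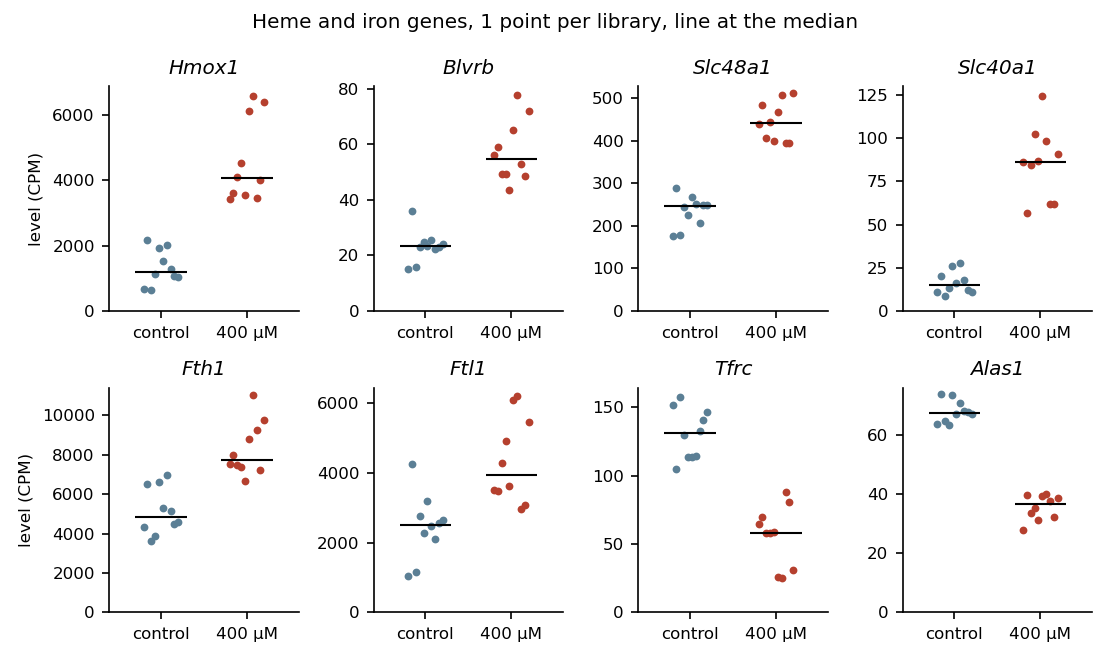
Levels in CPM (y axes, linear, from 0) of 8 genes of heme and iron metabolism in the 10 control and 10 heme-albumin 400 μM libraries, 1 point per library with a line at the group median. The groups do not overlap for Hmox1, Blvrb, Slc48a1, Slc40a1, Tfrc and Alas1 and overlap for Fth1 and Ftl1.

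Smaller rises were found for the ferritin receptor of autophagy Ncoa4 (0.23 ± 0.065 SE, adjusted p = 0.00453), the iron chaperone Pcbp1 (0.17 ± 0.051 SE, adjusted p = 0.00793) and the heme-binding repressor Bach1 (0.23 ± 0.073 SE, adjusted p = 0.0124). Cd163, the haptoglobin-hemoglobin receptor of macrophages, ran from 1.27 to 8.41 CPM (median 3.90) in the controls and from 1.20 to 4.07 CPM (median 1.83) at 400 μM. The groups overlapped, and the gene fell by 1.08 on the log2 scale (SE 0.24, adjusted p = 0.000457). Also lower were the metal importer Slc39a8 (−0.57 ± 0.11 SE, adjusted p = 2.84e-05), the ferroxidase Cp (−0.37 ± 0.11 SE, adjusted p = 0.00614) and the heme and urate exporter Abcg2 (−0.23 ± 0.083 SE, adjusted p = 0.0302). The call of Abcg2 was lost without 1 of 6 libraries (control replicates 5, 7 and 8 and 400 μM replicates 2, 3 and 9), with an adjusted p of up to 0.096. The constitutive heme oxygenase Hmox2 did not pass the test (−0.18 ± 0.074 SE, adjusted p = 0.0565), and it passed when 1 of 9 libraries was left out (control replicates 3, 4, 6, 9 and 10 and 400 μM replicates 6, 7, 8 and 10), with an adjusted p down to 0.019. Lrp1, the receptor for heme bound to hemopexin, did not pass either (−0.19 ± 0.11 SE, adjusted p = 0.186), nor did hemopexin itself, Hpx (0.30 ± 0.22 SE, adjusted p = 0.326), or transferrin, Trf (0.14 ± 0.14 SE, adjusted p = 0.5). Border macrophage markers, among them Cd163, summed to 207 to 631 CPM (median 349) in the controls and 148 to 379.6 CPM (median 231) at 400 μM, and their part in its change was not tested.

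Of the enzymes that make heme, only the first was clearly lower among the 13 tested (14 listed). Alas1, the rate-limiting aminolevulinate synthase, ran from 63.4 to 73.7 CPM (median 67.5) in the controls and from 27.8 to 40.1 CPM (median 36.6) at 400 μM. The groups were far apart, and the gene fell by 0.93 on the log2 scale (SE 0.061, adjusted p = 9.95e-19). At 200 μM it ran from 32.4 to 40.5 CPM (median 34.9), and the difference between 400 and 200 μM was −0.009 ± 0.061 (SE, adjusted p = 0.977) (95% interval −0.13 to 0.11). The mitochondrial porphyrin transporter Abcb6 rose by 0.50 ± 0.15 (SE, adjusted p = 0.00739) and Alad, the second enzyme, by 0.20 ± 0.074 (SE, adjusted p = 0.0392). The call of Alad was lost without control replicate 1, 3, 5 or 7 or 400 μM replicate 1, 7, 8 or 10, with an adjusted p of up to 0.108, and 4 genes of the list were higher without control replicate 4 or 10. The last enzyme, Fech, had 73.2 to 93.4 CPM (median 82.3) in the controls and 79.4 to 87.9 CPM (median 83.4) at 400 μM (0.03 ± 0.046 SE, adjusted p = 0.682).

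NRF2 targets rose broadly. Of 35 tested (36 listed), 28 were higher and 1, the isocitrate dehydrogenase Idh1 (−0.20 ± 0.045 SE, adjusted p = 0.000594), was lower. Their median was 0.52, and for 16 of them the exposed libraries lay wholly above the controls, beside 1.37% of all genes tested. Srxn1, which repairs overoxidized peroxiredoxins, ran from 62.1 to 95.01 CPM (median 74.8) in the controls and from 186 to 329 CPM (median 266) at 400 μM, a log2 fold change of 1.76 ± 0.091 (SE, adjusted p = 1.13e-22) and the smallest p-value of all genes tested. Slc7a11, whose upstream stretch is printed above, ran from 102 to 220.5 CPM (median 188) in the controls and from 502 to 1018 CPM (median 610.3) at 400 μM (1.90 ± 0.15 SE, adjusted p = 1.72e-15). Osgin1, an oxidative stress growth inhibitor, rose by 1.85 ± 0.10 (SE, adjusted p = 3.54e-21) and Gsta3, a glutathione transferase, by 1.65 ± 0.21 (SE, adjusted p = 1.48e-08). Groups overlapped for Gsta3 only among these 4 genes. Sqstm1, the autophagy adaptor p62, rose by 1.34 ± 0.093 (SE, adjusted p = 1.17e-17). The quinone reductase Nqo1 ran from 8.38 to 13.4 CPM (median 10.6) in the controls and from 18.9 to 28.2 CPM (median 23.6) at 400 μM (1.12 ± 0.083 SE, adjusted p = 1.67e-16). Gclm ran from 95.3 to 136 CPM (median 119) in the controls and from 232 to 297 CPM (median 248) at 400 μM (1.10 ± 0.064 SE, adjusted p = 7.65e-21). Gstm1, a glutathione transferase whose reads can be shared with its close paralogs, had 194 to 281 CPM (median 264) in the controls and 307 to 460.1 CPM (median 381) at 400 μM (0.56 ± 0.072 SE, adjusted p = 1.48e-08). None of Nqo1, Gclm and Gstm1 had overlapping groups.

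Genes of glutathione and thioredoxin chemistry were higher in part. Of 29 tested, 13 were higher and 2 lower, with a median of 0.08. Higher were the importer subunits Slc7a11 and Slc3a2 (1.22 ± 0.075 SE, adjusted p = 1.01e-19), the synthesis genes Gclm, Gclc (0.55) and Gss (0.45), and the peroxiredoxin Prdx1, which ran from 404 to 677 CPM (median 542) in the controls and from 817 to 1297 CPM (median 1083) at 400 μM (1.01 ± 0.095 SE, adjusted p = 1.16e-12). Chac1, which degrades glutathione, rose the most of the list. The glutathione peroxidase Gpx1 (−0.29 ± 0.079 SE, adjusted p = 0.00413) and the peroxiredoxin Prdx6 (−0.23 ± 0.074 SE, adjusted p = 0.0125) were lower. Gpx4, the peroxidase of membrane lipids, had 134 to 246 CPM (median 165) in the controls and 131 to 226 CPM (median 158) at 400 μM, and its change of 0.01 ± 0.10 (SE, adjusted p = 0.95) did not pass the test. The ferroptosis list holds several of the same genes, and 7 of its 19 tested members (21 listed) were higher and 3 lower, with a median of 0.15. Its highest members besides those named were Ptgs2 (2.73) and Gch1, the first enzyme of tetrahydrobiopterin synthesis (0.75 ± 0.14 SE, adjusted p = 2.48e-05).

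ATF4 targets and tRNA synthetases rose while chaperones of the endoplasmic reticulum fell. Of 30 ATF4 targets tested (31 listed), 24 were higher and the others did not pass the test, with a median of 0.82, the highest median of the lists. Chac1 ran from 3.87 to 7.86 CPM (median 6.01) in the controls and from 10.4 to 53.2 CPM (median 23.95) at 400 μM. Its log2 fold change was 2.26 ± 0.22 (SE, adjusted p = 1.92e-12), without overlap. Trib3, a pseudokinase, ran from 6.45 to 20.9 CPM (median 12.9) in the controls and from 22.3 to 96.2 CPM (median 45.8) at 400 μM, likewise without overlap (2.06 ± 0.20 SE, adjusted p = 6.02e-12). Gdf15, a secreted stress hormone that is also a p53 target, rose by 1.80 ± 0.23 (SE, adjusted p = 7.93e-09), Cth, the last enzyme of transsulfuration, by 1.67 ± 0.20 (SE, adjusted p = 1.22e-09), and Ppp1r15a, a phosphatase subunit that restarts translation, by 1.38 ± 0.14 (SE, adjusted p = 1.23e-11). Atf4 itself had 153 to 211 CPM (median 193) in the controls and 212 to 443 CPM (median 335) at 400 μM (0.84 ± 0.090 SE, adjusted p = 8.04e-11). Of 20 cytosolic tRNA synthetases, 18 were higher and the others did not pass the test, with a median of 0.43. The largest change among them was that of Nars, which charges asparagine tRNA (0.64 ± 0.054 SE, adjusted p = 1.95e-14).

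Of 22 chaperones and factors of the unfolded protein response of the endoplasmic reticulum, 13 were lower and the others did not pass the test, with a median of −0.27. Leaving out control replicate 2 or 400 μM replicate 3 gave 1 higher member and leaving out 400 μM replicate 5 gave 2. Calr, the calcium-binding chaperone calreticulin, ran from 861 to 1087 CPM (median 948) in the controls and from 477 to 735 CPM (median 614) at 400 μM. It fell by 0.65 on the log2 scale (SE 0.055, adjusted p = 2.68e-14), without overlap. The disulfide isomerase Pdia4 fell by 0.60 on the log2 scale (SE 0.061, adjusted p = 1.61e-11) and the ER co-chaperone Sdf2l1 by 0.64 on the log2 scale (SE 0.13, adjusted p = 9.31e-05). Hspa5, the central ER chaperone BiP, ran from 658 to 715 CPM (median 687) in the controls and from 428 to 577 CPM (median 488) at 400 μM and fell by 0.47 on the log2 scale (SE 0.047, adjusted p = 6.02e-12). The members that did not pass included Xbp1 (−0.11 ± 0.074 SE, adjusted p = 0.27) and Hyou1 (0.0079 ± 0.067 SE, adjusted p = 0.948).

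Genes of cytosolic protein quality control were higher. Of 36 proteasome subunits and assembly factors, 29 were higher and the others did not pass the test, with a median of 0.28. With 5 libraries a group, 17 were higher among the M libraries alone and 25 among the W libraries alone. Psmd11, a lid subunit, ran from 90.2 to 109 CPM (median 101.5) in the controls and from 136 to 162 CPM (median 149.7) at 400 μM, without overlap (0.57 ± 0.040 SE, adjusted p = 2.65e-17). Of 24 cytosolic heat shock genes, 12 were higher and 1 lower, with a median of 0.19. Among the M libraries alone 5 were higher, and among the W libraries alone 11. Hspa1b ran from 5.27 to 16.2 CPM (median 9.57) in the controls and from 13.7 to 41.1 CPM (median 30.6) at 400 μM, with 1 exposed library within the control range (1.65 ± 0.22 SE, adjusted p = 2.97e-08). Its near-identical neighbor Hspa1a, with which it shares reads, changed by 1.52 ± 0.23 (SE, adjusted p = 4.35e-07). The constitutive chaperone Hspa8 did not pass the test (0.05 ± 0.069 SE, adjusted p = 0.624).

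Metallothioneins went the other way. Mt1 ran from 701 to 949.8 CPM (median 856) in the controls and from 385 to 673 CPM (median 534) at 400 μM, without overlap, and fell by 0.65 on the log2 scale (SE 0.082, adjusted p = 6.22e-09). Mt2 fell by 0.47 on the log2 scale (SE 0.092, adjusted p = 7.2e-05), the brain form Mt3 by 0.27 on the log2 scale (SE 0.082, adjusted p = 0.00791) and the zinc and manganese exporter Slc30a10 by 0.90 on the log2 scale (SE 0.16, adjusted p = 9.99e-06). These were the 4 lower members of 7 tested, and the metal-sensing factor Mtf1 was the only higher one (0.10 ± 0.039 SE, adjusted p = 0.0359), a call that was lost in 10 of the 20 fits without 1 library (control replicates 3, 4 and 10 and 400 μM replicates 2, 4, 5, 6, 7, 9 and 10).

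Of 21 p53 targets, 12 were higher and 1 lower, with a median of 0.36. Sesn2, a sestrin that restrains mTORC1 and is also an ATF4 target, ran from 38.6 to 57.2 CPM (median 49.8) in the controls and from 68.1 to 139.7 CPM (median 104) at 400 μM, without overlap (1.16 ± 0.093 SE, adjusted p = 3.9e-15). Cdkn1a, the cell cycle inhibitor p21, ran from 104 to 200.5 CPM (median 140.3) in the controls and from 169 to 344 CPM (median 235) at 400 μM (0.77 ± 0.11 SE, adjusted p = 8.76e-08), and 8 exposed libraries lay above every control. Eda2r rose by 0.84 ± 0.11 (SE, adjusted p = 5.4e-09) and the exonuclease Aen by 0.80 ± 0.10 (SE, adjusted p = 6.15e-09), while Sesn1 was lower (−0.63 ± 0.090 SE, adjusted p = 1.48e-07). Of 20 genes of sterol synthesis tested (21 listed), 11 were higher and the others did not pass the test, with a median of 0.22. Among the W libraries alone 6 were higher, and among the M libraries alone 8. The largest was Lss, lanosterol synthase (0.45 ± 0.050 SE, adjusted p = 2.2e-10).

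**Figure D3:**
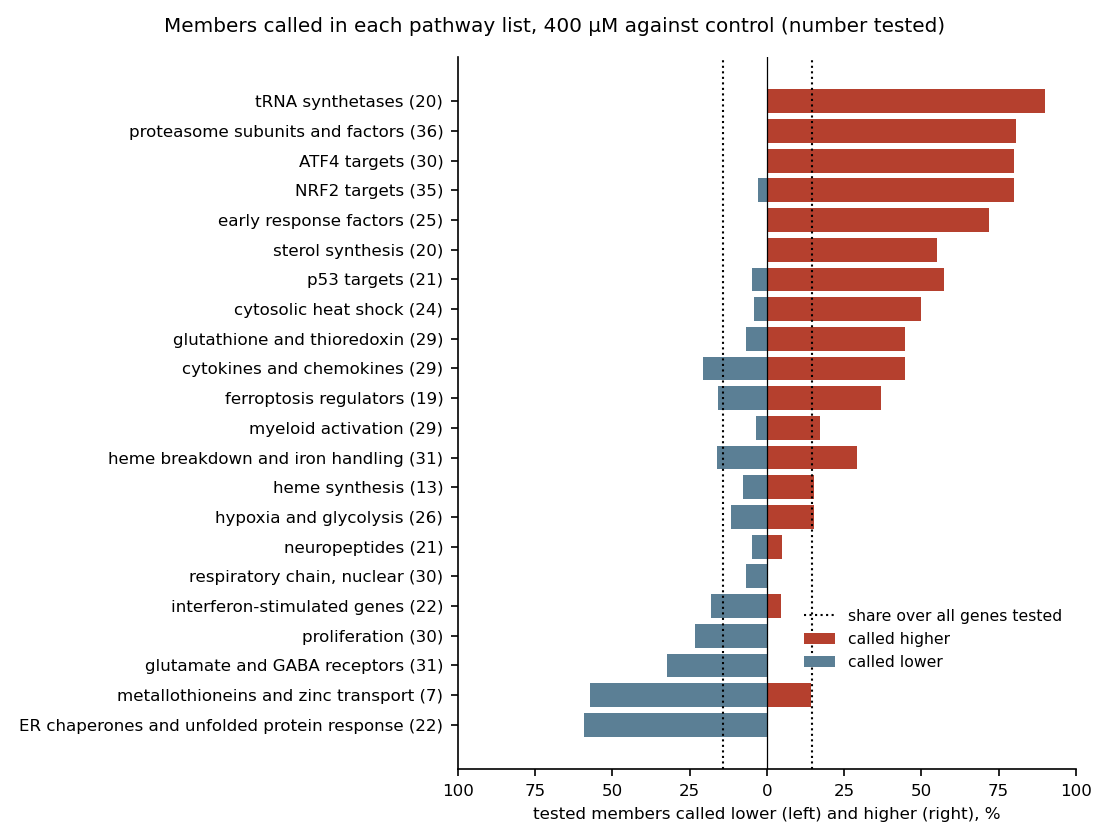
Share of the tested members of each of 22 gene lists that were higher (red, right) or lower (blue, left) at 400 μM heme-albumin against control at an adjusted p under 0.05 (x axis, %), with the number tested in brackets. Dotted lines mark the shares over all genes tested, 14.7% higher and 14.3% lower; tRNA synthetases, proteasome genes, ATF4 targets and NRF2 targets lie far to the right and ER chaperones and metallothioneins to the left.

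Early response transcription factors were also higher after 24 h. Of 25 tested, 18 were higher and the others did not pass the test, with a median of 0.58. Fosb ran from 1.26 to 2.67 CPM (median 1.93) in the controls and from 2.68 to 13.3 CPM (median 5.45) at 400 μM, without overlap (1.66 ± 0.19 SE, adjusted p = 4.8e-10). Klf4 changed by 1.41 ± 0.16 (SE, adjusted p = 4.99e-10), Nr4a3 by 1.27 ± 0.19 (SE, adjusted p = 5.83e-07) and Maff, a small MAF protein that pairs with NRF2 or with itself, by 1.26 ± 0.16 (SE, adjusted p = 5.4e-09). For Nr4a3, 400 μM replicate 9 had 21.9 CPM and the next library 11.4 CPM. Egr3 (0.17 ± 0.17 SE, adjusted p = 0.486) and Npas4 (0.30 ± 0.17 SE, adjusted p = 0.188), chosen after their values were seen, were among those that did not pass the test.

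Secreted signals rose in part. Of 29 cytokines and chemokines tested (33 listed), 13 were higher and 6 lower, with a median of 0.28. Beside Cxcl2, Il11 and Il19, the higher members included Lif, a cytokine that acts on astrocytes and neural precursors, which ran from 6.04 to 14.5 CPM (median 9.86) in the controls and from 17.3 to 72.3 CPM (median 34.4) at 400 μM, without overlap (1.98 ± 0.20 SE, adjusted p = 9.43e-12). Cxcl3, whose reads can be shared with its paralogs, changed by 3.04 ± 0.71 (SE, adjusted p = 0.000776), and 400 μM replicate 2 had 6.43 CPM where the next had 1.25 CPM. Without it the change was 2.03 with an adjusted p of 0.0201. The interferon-induced chemokine Cxcl10 ran from 2.52 to 7.82 CPM (median 5.09) in the controls and from 5.95 to 67.5 CPM (median 11.5) at 400 μM (1.74 ± 0.33 SE, adjusted p = 3.83e-05), with the highest value in 400 μM replicate 9 and the next at 19.2 CPM. Ccl2, which draws monocytes, had 30.5 to 71.8 CPM (median 54.5) in the controls and 50.97 to 211 CPM (median 101.3) at 400 μM (1.07 ± 0.20 SE, adjusted p = 2.52e-05), and Il6 changed by 1.10 ± 0.31 (SE, adjusted p = 0.0051). The 6 lower members included Ccl12, which ran from 2.73 to 14.5 CPM (median 5.71) in the controls and from 0.823 to 3.23 CPM (median 1.73) at 400 μM (−1.99 ± 0.28 SE, adjusted p = 7.1e-08), and the IL-1 receptor antagonist Il1rn (−1.17 ± 0.27 SE, adjusted p = 0.000746). Tnf did not pass the test (0.16 ± 0.36 SE, adjusted p = 0.783), and Il1b was too low to be tested.

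Markers of myeloid activation mostly did not pass. Of 29 tested (30 listed), 5 were higher (17.2%) and 1 lower (3.45%), with a median of −0.03. Over all genes tested 14.7% were higher and 14.3% lower, so the higher share of the list was close to that of all genes. The 5 were Ptgs2, Fpr1, Clec4e, Clec4d and Tnfrsf1a. Ptgs2, the inducible cyclooxygenase, ran from 8.42 to 24.7 CPM (median 11.4) in the controls and from 20.9 to 257 CPM (median 63.9) at 400 μM, with 9 exposed libraries above every control (2.73 ± 0.28 SE, adjusted p = 1.4e-11). Fpr1, a formyl peptide receptor, had a median of 0.480 CPM at 400 μM and 14.5 CPM in replicate 2, and its change of 2.55 ± 0.85 (SE, adjusted p = 0.0184) became 0.56 with an adjusted p of 0.655 without that library. Without it Clec4e was no longer called either, with an adjusted p of 0.132, and 3 members of the list were higher. The TNF receptor Tnfrsf1a ran from 214 to 255 CPM (median 236) in the controls and from 241 to 268 CPM (median 252) at 400 μM, a small rise of 0.12 ± 0.035 (SE, adjusted p = 0.00618). Gpr84, a receptor for medium-chain fatty acids, had 1.64 to 4.15 CPM (median 2.62) in the controls and 1.55 to 5.93 CPM (median 2.89) at 400 μM and did not pass (0.10 ± 0.30 SE, adjusted p = 0.838). The lower member was Tlr4 (−0.31 ± 0.11 SE, adjusted p = 0.0271), a call that was lost without control replicate 5 or 7; 2 members were lower without control replicate 10 or 400 μM replicate 6 or 7. Of 22 interferon-stimulated genes, Cxcl10 was higher and 4 were lower (18.2%), Ifit2 and Gbp3 among them, with a median of −0.27. The lower share was close to the 14.3% over all genes tested. In the W libraries alone 0 were lower, and in the M libraries alone 5.

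Markers of astrocytes and microglia were lower, and those of neurons and oligodendrocytes mostly did not pass the test. The counts of markers called are to be read beside the 14.7% higher and 14.3% lower over all genes tested. In bulk tissue, fewer cells of a type and less RNA per cell cannot be told apart. Of 14 astrocyte markers, 9 were lower and the others did not pass the test, with a median of −0.38, and their sum ran from 9066 to 13612 CPM (median 12436) in the controls and from 6515 to 10842 CPM (median 8708) at 400 μM. The groups overlapped. The glutamate transporter Slc1a2 ran from 1008 to 1528 CPM (median 1254) in the controls and from 508 to 964 CPM (median 755) at 400 μM, without overlap, and fell by 0.80 on the log2 scale (SE 0.096, adjusted p = 2.34e-09). The water channel Aqp4 fell by 0.66 on the log2 scale (SE 0.093, adjusted p = 1.01e-07), also without overlap. Gfap, the intermediate filament that rises in reactive astrocytes, had 4281 to 7231 CPM (median 6349) in the controls and 2905 to 5396 CPM (median 4499) at 400 μM and fell by 0.49 on the log2 scale (SE 0.11, adjusted p = 0.000264). The aldolase Aldoc fell by 0.79 on the log2 scale (SE 0.083, adjusted p = 5.11e-11). Not all astrocyte genes passed the test, and Slc1a3 (−0.25 ± 0.15 SE, adjusted p = 0.206) and Aldh1l1 (−0.28 ± 0.24 SE, adjusted p = 0.405) had negative changes that did not pass. Among the M libraries alone 4 of the 14 were lower, and among the W libraries alone 6.

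Of 17 markers of homeostatic microglia tested (18 listed), 8 were lower and the others did not pass the test, with a median of −0.70. Their sum ran from 1061 to 3843 CPM (median 1828) in the controls and from 809 to 2353 CPM (median 1384) at 400 μM, with overlap. Gpr34 ran from 1.58 to 4.29 CPM (median 2.19) in the controls and from 0.107 to 1.13 CPM (median 0.748) at 400 μM. It did not overlap and fell by 1.98 on the log2 scale (SE 0.31, adjusted p = 8.79e-07). The fractalkine receptor Cx3cr1 fell by 1.05 on the log2 scale (SE 0.33, adjusted p = 0.0134). The complement genes C1qa (−0.47 ± 0.28 SE, adjusted p = 0.207) and C1qc (−0.51 ± 0.28 SE, adjusted p = 0.176) did not pass the test. Of the 17, 3 were lower among the W libraries and 5 among the M libraries alone. At 200 μM 12 of them were lower than in the controls, with a median of −0.81. Between 200 and 400 μM 0 were called, with a median of 0.22. Of 10 border macrophage markers tested, 3 were lower (30%, beside 14.3% of all genes tested), and 5 without control replicate 3 or 6 or 400 μM replicate 4 or 6.

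**Figure D4:**
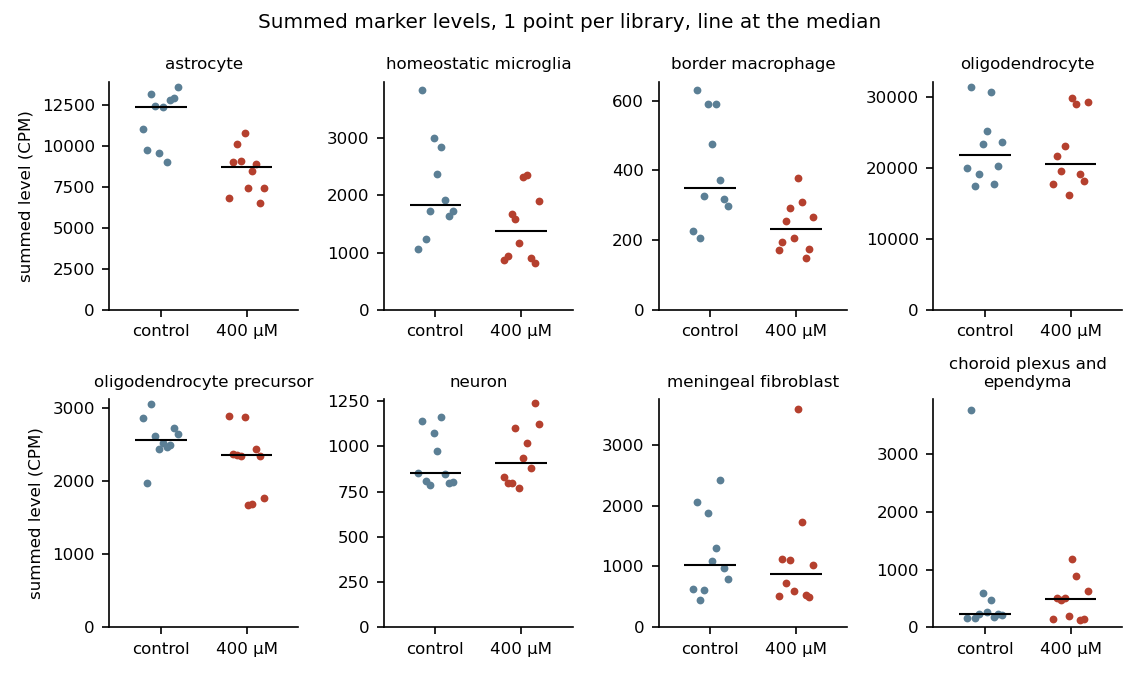
Summed levels in CPM (y axes, linear, from 0) of the markers of 8 cell types in the 10 control and 10 heme-albumin 400 μM libraries, 1 point per library with a line at the group median. Astrocyte and microglial sums have lower medians at 400 μM with overlap, neuronal sums overlap widely, and 1 library of each group stands far above the rest in choroid plexus (control) and meningeal (400 μM) markers.

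Of 20 neuronal markers, 2 were higher (10%, beside 14.7% of all genes tested) and the others did not pass the test. These were the neurofilament Nefm, which ran from 3.89 to 11.9 CPM (median 7.67) in the controls and from 12.4 to 35.99 CPM (median 18.2) at 400 μM without overlap (1.41 ± 0.22 SE, adjusted p = 1.07e-06), and the vesicular glutamate transporter Slc17a7, which had 0.0790 to 1.81 CPM (median 0.391) in the controls and 0.134 to 10.5 CPM (median 0.741) at 400 μM (1.66 ± 0.57 SE, adjusted p = 0.0224). 400 μM replicate 8 had the highest Slc17a7 level, with the next at 2.60 CPM, and without it only Nefm was higher. The neuronal sum was 785 to 1163 CPM (median 849.9) in the controls and 771 to 1237 CPM (median 906) at 400 μM. Of 14 oligodendrocyte markers, 1 was lower (7.14%, beside 14.3% of all genes tested), and 2 without 400 μM replicate 6, 7 or 10. Of 10 precursor markers, 4 were lower, among them Vcan (−0.53 ± 0.12 SE, adjusted p = 0.000455), and Olig2 was higher (0.42 ± 0.11 SE, adjusted p = 0.0016). Of 14 endothelial markers 4 were lower and the others did not pass the test, with 2 lower without control replicate 5 or 7 and up to 2 higher without control replicate 2, 8 or 10 or 400 μM replicate 1, 2, 3, 5 or 8. Of 11 markers of pericytes and smooth muscle tested, 4 were lower, among them Tagln (−0.77 ± 0.16 SE, adjusted p = 0.000127). Meningeal and choroid plexus markers summed to 457 to 2423 CPM (median 1029) and 162 to 3766 CPM (median 233) in the controls and to 494 to 3588 CPM (median 875) and 135 to 1186 CPM (median 491) at 400 μM. Lower were 1 of 11 (9.09%) and 2 of 12 (16.7%) tested markers, beside 14.3% of all genes tested. Without control replicate 2 and 400 μM replicate 6, 1 marker of each was lower. Leaving out 1 library gave 0 to 3 lower meningeal markers (0 without control replicate 2, 5 or 8 or 400 μM replicate 1, 4 or 10, and 2 or 3 without control replicate 4, 6, 7 or 10 or 400 μM replicate 2, 5, 6 or 7) and 1 lower choroid plexus marker without control replicate 2, 5 or 6 or 400 μM replicate 1, 2, 4, 5, 8 or 9. The lists for hypothalamus, thalamus, striatum and cortex with hippocampus had 0 of 9, 3 of 10, 0 of 10 and 3 of 10 tested markers called in either direction, beside 29% of all genes tested. These counts turned on single libraries too: 1 or 2 striatal markers were lower without control replicate 1, 3, 5, 6, 7 or 9 or 400 μM replicate 6 or 8, the only higher thalamic call was lost without control replicate 2, 5, 6 or 7 or 400 μM replicate 2, 8, 9 or 10, and the only lower call for cortex with hippocampus was lost in 13 of the 20 fits without 1 library (those without control replicate 3, 4, 6, 8, 9 or 10 or 400 μM replicate 1, 2, 4, 6, 7, 9 or 10). Without control replicate 2 and 400 μM replicate 6, 1 striatal marker was lower and the last 2 of these calls were lost. Among the other lists, leaving out both gave 1 higher ER chaperone (0 with all libraries), 0 higher metallothionein genes (1), 2 higher neuropeptide genes (1) and 2 higher endothelial markers (0).

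Receptors for glutamate and GABA were lower in part. Of 31 tested (32 listed), 10 were lower and the others did not pass the test, with a median of −0.16. Within the M libraries alone 3 and within the W libraries alone 4 were lower. Gria1, an AMPA receptor subunit, ran from 29.1 to 45.5 CPM (median 34.1) in the controls and from 11.9 to 32.2 CPM (median 25.5) at 400 μM, with 9 exposed libraries below every control, and fell by 0.61 on the log2 scale (SE 0.14, adjusted p = 0.000796). The GABA receptor subunit Gabra4 fell by 0.62 on the log2 scale (SE 0.10, adjusted p = 2.49e-06) and the NMDA receptor subunit Grin2c by 0.69 on the log2 scale (SE 0.15, adjusted p = 0.000368). Of 21 neuropeptide genes tested (24 listed), Vgf was higher, which ran from 25.7 to 50.7 CPM (median 36.9) in the controls and from 51.8 to 175 CPM (median 100.03) at 400 μM without overlap (1.48 ± 0.17 SE, adjusted p = 1.28e-09), and Nnat was lower (−0.46 ± 0.13 SE, adjusted p = 0.00531); 2 were higher without control replicate 2 or 6 or 1 of 400 μM replicates 1 to 6. Hypoxia and glycolysis genes (4 of 26 higher, 3 lower, median −0.03) and nuclear genes of the respiratory chain (0 of 30 higher, 2 lower, median −0.0044) are to be read beside the 14.7% higher and 14.3% lower over all genes tested, to which the hypoxia list was close. The lower hypoxia count rose to 5 without control replicate 6, to 6 without control replicate 1 or 400 μM replicate 5 or 8 and to 7 without control replicate 5 or 7, and the lower respiratory count to 6 without 400 μM replicate 8. The glucose transporter Slc2a1 rose by 0.46 ± 0.096 (SE, adjusted p = 0.000171). Of 30 proliferation genes, 7 were lower and the others did not pass the test, with a median of −0.33, among them the survivin gene Birc5 (−0.54 ± 0.15 SE, adjusted p = 0.00403). That count was 4 without control replicate 1 or 3 or 400 μM replicate 6, 7 or 10, 15 without control replicate 2, 16 without 400 μM replicate 5 or 8 and 22 without 400 μM replicate 1.

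The dose of 200 μM is the most similar condition, and 400 μM was compared with it directly. The controls do not enter this contrast, but like the other libraries of batch 1 they share in the estimate of the spread. Of the 15554 genes, 110 were higher (0.707%) and 87 lower (0.559%) at 400 μM. Of these, 108 were also higher and 84 also lower at 400 μM than in the controls. Both contrasts share the 400 μM libraries, so this overlap is in part built in and is a description. With only the libraries of both doses in the fit, 11 were higher and 18 lower. Without control replicate 2 and 400 μM replicate 6 the counts were 71 and 50, among the M libraries alone 0 and 0 (edgeR's quasi-likelihood test, with 532 genes at an unadjusted p under 0.05) and among the W libraries alone 65 and 45. The count of higher genes was 194 without 400 μM replicate 5, 61 without replicate 6, 72 without replicate 7, 47 without replicate 9 and 42 without replicate 10, and that of lower genes 148, 48 and 53 without replicates 5, 6 and 10. Against the controls, 1086 genes were higher (6.98%) and 1027 lower (6.60%) at 200 μM, beside the 2284 and 2226 at 400 μM.

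From 200 to 400 μM, 13 of 30 ATF4 targets, 7 of 25 early response factors, 4 of 20 tRNA synthetases, 6 of 35 NRF2 targets and 4 of 29 cytokines and chemokines were higher, beside 0.707% of all genes tested. These list counts depended on single libraries. Without 400 μM replicate 10 the calls of the synthetase genes Nars, Aars and Cars were lost. So were those of Gdf15, Ppp1r15a, Chac1, Maff, Sqstm1, Blvrb and Cxcl2. The calls of Srxn1, Osgin1, Il11 and Lif held in every fit without 1 library. Cxcl2 went from 1.68 to 13.3 CPM (median 3.11) at 200 μM to the 400 μM levels above, a log2 fold change of 1.54 ± 0.42 (SE, adjusted p = 0.0449). Il11 ran from 4.17 to 18.5 CPM (median 8.79) at 200 μM (1.29 ± 0.23 SE, adjusted p = 0.000555), Lif from 10.97 to 31.7 CPM (median 13.9) (1.20 ± 0.19 SE, adjusted p = 0.000211) and Ptgs2 from 18.6 to 80.3 CPM (median 31.03) (1.20 ± 0.26 SE, adjusted p = 0.00796). The groups of 200 and 400 μM overlapped for each of these 4 genes. Esm1, a secreted proteoglycan of endothelium, changed by 1.30 ± 0.36 (SE, adjusted p = 0.0471) and the adhesion receptor Adgrg2 by 1.19 ± 0.28 (SE, adjusted p = 0.014). Chac1 was among the ATF4 targets that were higher (0.89 ± 0.20 SE, adjusted p = 0.0117). The NRF2 targets that were higher included Srxn1 (0.51 ± 0.088 SE, adjusted p = 0.000371) and Osgin1 (0.48 ± 0.099 SE, adjusted p = 0.00398). Nqo1 (0.27 ± 0.080 SE, adjusted p = 0.0872, 95% interval 0.11 to 0.42), Gclm (0.15 ± 0.063 SE, adjusted p = 0.306, 0.03 to 0.27) and Hmox1 (0.44 ± 0.18 SE, adjusted p = 0.287, 0.09 to 0.80) did not pass the test. Blvrb was the only gene of the iron list that was higher (0.49 ± 0.12 SE, adjusted p = 0.0234).

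Among the 6 genes lowered most between these doses were Hapln1 (−0.97 ± 0.21 SE, adjusted p = 0.00626), Acan (−0.77 ± 0.14 SE, adjusted p = 0.00117), Slc10a6 (−0.75 ± 0.18 SE, adjusted p = 0.0157), Mroh3 (−0.74 ± 0.12 SE, adjusted p = 0.000229) and Crym, a thyroid hormone binding protein (−0.69 ± 0.14 SE, adjusted p = 0.00292). Acan ran from 9.49 to 23.4 CPM (median 17) at 200 μM and Crym from 25.9 to 60.3 CPM (median 42.98), beside 19.5 to 35.5 CPM (median 26.2) at 400 μM. Leaving out 1 exposed library ended the call of Cxcl2 (replicate 2, 6, 7, 9 or 10), Esm1 (3, 6, 7 or 10), Blvrb (6, 7 or 10), Adgrg2 (9 or 10), Ptgs2 (9) and Chac1 (10), with an adjusted p of up to 0.19. With only the libraries of both doses in the fit, the calls of these genes ended, as did those of Il11, Lif, Hapln1 and Slc10a6. Among the M libraries alone no call was left, so those of Acan, Crym, Mroh3, Srxn1 and Osgin1 ended there too. Fosl1, Cxcl10 and Nefm have exons that overlap a gene on the opposite strand (Ccdc85b, Art3 and Nefl, GENCODE M21), and whether the counting used strand is not given in the sources used here. Of the called genes that were higher at 400 μM than in the controls, 1025 of 2284 (44.9%) had group means that rose at every step from 0 through 12.5, 50 and 200 to 400 μM, and of the lower ones 864 of 2226 (38.8%) fell at every step. Over all genes tested these shares were 7.8% and 7.1%. Choosing genes by the difference between the ends of the series raises such a share, so it is a description.

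**Figure D5:**
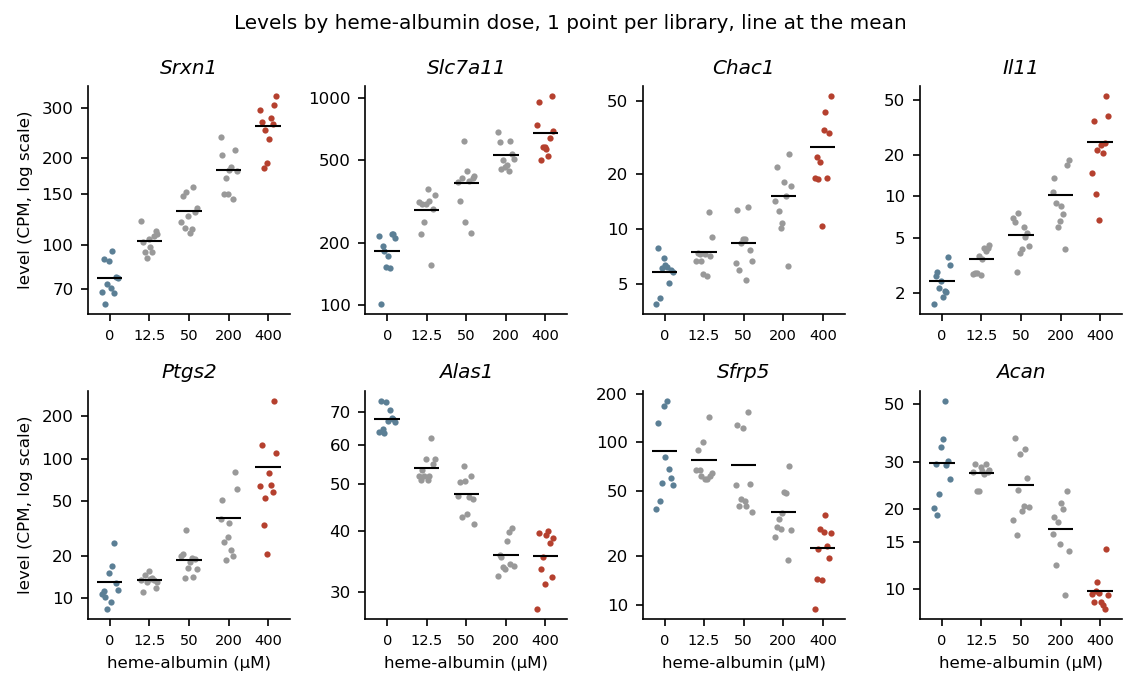
Levels in CPM (y axes, log scale) of 8 genes at 0, 12.5, 50, 200 and 400 μM heme-albumin (x axes), 1 point per library, 10 libraries a dose, with a line at the mean. Srxn1, Slc7a11, Chac1, Il11 and Ptgs2 are highest at 400 μM, Sfrp5 and Acan lowest, and Alas1 is at about the same level at 200 and 400 μM.

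The change at 400 μM was compared between the M and W libraries. In edgeR's quasi-likelihood test 0 of 15554 genes differed (0.00%), 1542 had an unadjusted p under 0.05, and DESeq2 called 1. With the replicate block, which takes the letter and first digit of the library name as a code, 0 genes were called, and 185 (148 higher and 37 lower) when 1 library per code was kept as well. The cause was not tested. The gene called by DESeq2, named after its values were seen, was Ifrd1, with log2 fold changes of 0.29 ± 0.091 (SE) in the M and 0.92 ± 0.091 (SE) in the W libraries, a difference of −0.64 (adjusted p = 0.123).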

How the data were processed

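mRNA of BSCs was sequenced from Illumina TruSeq mRNA libraries. For each library the authors deposited raw counts per Ensembl gene, whole numbers without normalization. The submitters' processing notes name featureCounts and the genome build GRCm39. The aligner, the annotation release and the strand setting are not given in the sources used here, so genes that overlap on opposite strands or share reads with close paralogs (Hspa1a with Hspa1b, Gstm1, Cxcl3) are uncertain.

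Samples were grouped by their treatment and batch tags. All 60 libraries of batch 1 (control, 4 doses of heme-albumin and hemeHpx, 10 libraries each) were fitted together with group means. The 128 libraries of batches 2 and 3 were not used. The files list 25655 genes, of which 15554 passed filterByExpr (smallest count 10, smallest total count 15). Tests used edgeR 4.0.16 in R 4.3.3 (TMM scaling, glmQLFit and glmQLFTest, Benjamini-Hochberg at 0.05), and the contrasts were 400 μM against control, 400 against 200 μM, and the interaction of 400 μM with the letter of the library name. The study itself used DESeq2. CPM rest on library sizes corrected by TMM, and standard errors follow from the log2 fold change and F. The principal components used log2 CPM with a prior count of 2. The fit was first checked on simulated libraries whose changes were known. Intervals (95%) are 1.96 standard errors wide on either side.

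Members and gene lists were chosen with earlier results of these data known. Named genes are the 12 raised most and 12 lowered most at 400 μM (6 and 6 against 200 μM) with an adjusted p under 0.05, a mean of at least 1 CPM and no predicted-gene name, the genes the paper names, all genes of the heme and iron lists, up to 6 called members of each pathway list and up to 5 markers of each cell type. Atf4, Ccl2, Cx3cr1, Egr3, Gclc, Gpx1, Gpx4, Gss, Hspa5, Hspa8, Hyou1, Idh1, Ifrd1, Il1b, Il1rn, Il6, Nefm, Npas4, Prdx6, Sesn1, Slc17a7, Tnf and Xbp1 were chosen after their values were seen. Some named genes are not reported here. Alternatives were DESeq2 1.42.0, RLE scaling, no filter or at least 10 counts in every library, the libraries of the compared groups alone, a replicate block, M or W libraries alone, and leaving out libraries. Promoter windows came from RefSeq (GRCm38.p6) and exon overlaps from GENCODE M21. Other steps used Python 3.11.15, pandas 2.3.3, numpy 2.4.6 and matplotlib 3.10.9.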

Additional observations from a re-analysis of the deposited data

Results flagged for a closer look

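Single libraries stood apart from the other 9 of their group by Dixon's test in 15 of the 128 groups of values examined. For normally distributed values chance alone picks out about 1 in 20, a rate that need not hold for levels in CPM. Every flagged value was the highest of its group. Some genes and marker sums share libraries, so the flags are not independent.

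In 400 μM replicate 2, Acod1 had 27.3 CPM (next 1.98 CPM), Fpr1 14.5 CPM (next 1.01 CPM), Cxcl3 6.43 CPM (next 1.25 CPM) and Lcn2 3038 CPM (next 1853 CPM). The calls of Acod1 and Fpr1 were lost without this library, that of Cxcl3 was kept, and Lcn2 was not called. In 400 μM replicate 9, Ptgs2 had 257 CPM (next 125 CPM), Cxcl10 67.5 CPM (next 19.2 CPM), Nr4a3 21.9 CPM (next 11.4 CPM) and Acan 14.1 CPM (next 10.6 CPM). All 4 calls against control held without it, and that of Ptgs2 against 200 μM was lost. In 400 μM replicate 8, Slc17a7 had 10.5 CPM (next 2.60 CPM). In 400 μM replicate 6, meningeal fibroblast markers summed to 3588 CPM (next 1730.5 CPM).

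In control replicate 2, choroid plexus and ependyma markers summed to 3766 CPM (next 593 CPM) and striatal markers to 129 CPM (next 61.1 CPM), and Gpx4 had 246 CPM (next 183 CPM). Fosl1 had 9.36 CPM in control replicate 3 (next 6.95 CPM), and Ptgs2 24.7 CPM in control replicate 8 (next 16.9 CPM).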

How the results depend on the processing

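For 400 μM against control, the counts of 2284 higher and 2226 lower genes stayed within 1.5 times under DESeq2, RLE scaling, either filter on low counts and the replicate block (2687 higher and 2578 lower). With only the libraries of both groups in the fit, 1455 genes were lower. With 5 libraries a group, 1092 were higher and 1047 lower among the M libraries and 1317 and 1187 among the W libraries. Leaving out 1 library gave 2005 to 2331 higher and 1988 to 2406 lower genes.

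For 400 against 200 μM, the counts of 110 and 87 were less stable. DESeq2 called 173 genes higher. With only the libraries of both groups 11 were higher and 18 lower, with the replicate block 180 and 141, among the M libraries 0 and 0, among the W libraries 65 and 45, and without control replicate 2 and 400 μM replicate 6 71 and 50. Leaving out 1 library of 400 μM gave 42 to 194 higher and 48 to 148 lower genes. Apart from the smaller number of libraries in some of these fits, the cause was not tested.

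The difference between M and W libraries was called for 0 genes by edgeR, for 1 by DESeq2, for 1 with at least 10 counts in every library, for 1 without control replicate 2, for 2 without control replicate 7, for 1 without control replicate 2 and 400 μM replicate 6, and for 185 with the replicate block and 1 library per code. The cause was not tested.

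The replicate block takes the letter and first digit of the library name as a code, which the labels do not tie to an animal. Deviations of same-code libraries correlated at −0.541 to 0.667 in 11 pairs (median −0.072), 5 were over 0.1, and 1 of 10 libraries correlated best with its own code, so the code was not taken as a pairing.

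Of 7023 values recomputed for 235 named genes against control, 6767 kept their side of the threshold, 206 lost and 50 gained a call. Where either fit called the gene, 0 changed direction, and direction was not compared where neither did. Of 739 values for the 37 genes named against 200 μM, which were all called, 584 kept their direction and call, 155 lost the call and 0 changed direction. Leaving out single libraries, and control replicate 2 together with 400 μM replicate 6, were alternatives chosen after seeing the data. Genes with few counts have wide errors, and the controls were shallower than the exposed libraries.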

Other observations

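Levels at the lower doses place 400 μM within the series, as a description without a test. The median level of Alas1 was 67.5 CPM in the controls, 52.6 CPM at 12.5 μM, 47.2 CPM at 50 μM, 34.9 CPM at 200 μM and 36.6 CPM at 400 μM. Its 10 libraries at 12.5 μM already lay below every control, and the median at 400 μM was no lower than at 200 μM. Slc40a1 had medians of 14.9 CPM in the controls, 22.7 CPM at 12.5 μM, 41.3 CPM at 50 μM, 66.3 CPM at 200 μM and 86.5 CPM at 400 μM, and Hmox1 of 1197 CPM in the controls, 1685 CPM at 12.5 μM, 2386 CPM at 50 μM, 3356 CPM at 200 μM and 4062 CPM at 400 μM. Between neighboring doses, the medians of both genes moved most from 50 to 200 μM in CPM. Srxn1 had medians of 74.8 CPM in the controls, 103 CPM at 12.5 μM, 128 CPM at 50 μM, 181 CPM at 200 μM and 266 CPM at 400 μM. The medians of Srxn1, and likewise those of Il11, 2.30 CPM in the controls, 3.58 CPM at 12.5 μM, 5.26 CPM at 50 μM, 8.79 CPM at 200 μM and 22.7 CPM at 400 μM, and of Chac1, 6.01 CPM in the controls, 7.18 CPM at 12.5 μM, 8.001 CPM at 50 μM, 14.6 CPM at 200 μM and 23.95 CPM at 400 μM, moved most between the last 2 doses in CPM. The median of the ER chaperone Calr was 948 CPM in the controls, 896 CPM at 12.5 μM, 873 CPM at 50 μM, 699 CPM at 200 μM and 614 CPM at 400 μM, and that of the transferrin receptor Tfrc 131 CPM in the controls, 109 CPM at 12.5 μM, 89.97 CPM at 50 μM, 70.7 CPM at 200 μM and 58.2 CPM at 400 μM. These medians of Calr and Tfrc were lower at each higher dose, as were those of Acan, with 29.5 CPM in the controls, 27.8 CPM at 12.5 μM, 22.1 CPM at 50 μM, 17 CPM at 200 μM and 9.53 CPM at 400 μM.

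The neutrophil gelatinase-associated lipocalin Lcn2, which binds bacterial iron carriers, had 954 to 1625 CPM (median 1369) in the controls and 983 to 3038 CPM (median 1385) at 400 μM, with the highest value in 400 μM replicate 2. It did not pass the test (0.23 ± 0.15 SE, adjusted p = 0.265).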
